A study of Mus musculus with 5 samples.

Results

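The substitution K118R, a lysine to arginine change, was present in 2 construct backgrounds of the same cell line. This report describes how its transcript differences compared between those backgrounds. The unit is the gene: 1997 of the 50867 gene models in the deposited table had 10 or more counts in at least 3 of the 4 libraries compared, and these genes entered. For each gene a K118R ratio was taken in each background, S_PXT1_K118R over S_PXT1 and WT_K118R over WT, as a log2 ratio of CPM (counts relative to the library total, scaled with TMM, a method that matches libraries on the bulk of their genes) plus 1. The difference of the 2 log2 ratios, S_PXT1 background minus WT background, is the quantity described. A positive difference means that the K118R ratio was higher in the S_PXT1 background.

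The cells were Ba/F3, an interleukin-3-dependent line of mouse pro-B cells, and had been infected with lentivirus. The groups were S_PXT1_K118R, S_PXT1, WT_K118R, WT and PMSCV, the name of a retroviral vector, and the labels do not spell out S and WT. PMSCV entered none of the ratios and is given as a further level. With 1 library per group, none of the differences could be checked against a replicate, and no p-value is given. The intervals cover counting error only, and with no molecular identifiers 1 molecule can give several reads. Whether the differences between libraries come from the constructs or from anything else that differed between 2 single cultures cannot be told apart.

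A comparison of this form asks whether a substitution goes with the same expression differences wherever it is placed. Where a protein acts through an enzymatic activity that the lysine is needed for, arginine at that position can remove the activity while keeping the charge. In protein kinases, a conserved lysine holds ATP, and arginine is the usual replacement for it. Ba/F3 cells rest on signalling from the interleukin-3 receptor, and oncogenes are often tested in them by whether they replace that signal. By its title the series is about an oncofusion in paediatric leukaemia whose mRNA is stabilised by the rearrangement.

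The 4 libraries were shallow. Library totals were 250409, 259047, 347661 and 351693 counts in S_PXT1_K118R, S_PXT1, WT_K118R and WT, and a single count was worth between 2.90 and 3.92 CPM. A count of 0 allows up to 3 counts, between 8.71 and 11.7 CPM. S_PXT1_K118R and S_PXT1 held counts for 7044 and 7393 genes, against 11504 in WT_K118R and 11712 in WT. The entering genes took 94.8% and 94.7% of the counts in S_PXT1_K118R and S_PXT1, and 88.6% and 88.2% in WT_K118R and WT. The table names human gene models although the cells are mouse, so a level is set against the same gene in another library and never against another gene. PXT1, the gene named in the construct labels (ENSG00000179165; the table places it at 36390551 to 36442889 of human chromosome 6 and names no build), had 0 counts in each of the 5 libraries and gives no check of the labels. Markers of the labelled cell type were nearly absent. The 16 pro-B and haematopoietic markers in the table summed to 3, 5, 29 and 38 counts in S_PXT1_K118R, S_PXT1, WT_K118R and WT, and none of them entered. CD79A, CD79B, VPREB1, IGLL1 and IL3RA were at 0 in each of the 5 libraries, and PTPRC had 0 counts in S_PXT1_K118R and S_PXT1, 3 in WT_K118R and 6 in WT. Squamous epithelium and immunoglobulin markers were counted mainly outside the S_PXT1 background, in PMSCV as well as in the WT background. The 34 squamous epithelium markers summed to 4 and 1 counts in S_PXT1_K118R and S_PXT1, against 764 in WT_K118R, 1377 in WT and 496 in PMSCV. The 14 immunoglobulin genes summed to 2, 2, 29, 506 and 752 in the same order. No member of these marker lists entered, and their part in the results was not tested.

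The filter set which genes could be compared. A further 559 models had 10 or more counts in exactly 2 of the 4 libraries, and 458 of these reached it in WT_K118R and WT and in neither S_PXT1 library, against 6 the other way round. At the edge, 84 entering genes had a second lowest count of 10, and 100 models with a second lowest count of 9 stayed out. The filter admits a gene that is at 0 in 1 library but not one that is high in 1 library and low in the other 3.

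Across the entering genes the difference of the 2 ratios was centred near 0, with a median of 0.01 on the log2 scale and 10th and 90th percentiles of -0.84 and 0.92. It was past 2-fold in 338 genes (16.9%), of which 177 (8.86%) were higher in the S_PXT1 background and 161 (8.06%) lower. The S_PXT1 ratio itself was past 2-fold in 215 genes (10.8%), 101 higher (5.06%) and 114 lower (5.71%). The WT ratio was past 2-fold in 90 genes (4.51%), 42 higher (2.1%) and 48 lower (2.4%). These shares rested on depth. The difference was past 2-fold in 32.3% of the 493 genes with a mean of 10 to 20 counts over the 4 libraries, in 18.5% of 626 genes at 20 to 50, in 9.80% of 357 genes at 50 to 100 and in 5.37% of the 521 genes with a mean of 100 or more. Among the 1504 genes with a mean of 20 or more counts, 90 differences were higher (5.98%) and 89 lower (5.92%). The S_PXT1 ratio was past 2-fold in 104 of those genes (6.91%), 49 higher (3.26%) and 55 lower (3.66%), and the WT ratio in 66 (4.39%), 32 higher (2.13%) and 34 lower (2.26%). Among the 521 genes with a mean of 100 or more, 12 differences were higher (2.3%) and 16 lower (3.07%). There the S_PXT1 ratio was past 2-fold in 15 genes (2.88%), 3 higher (0.576%) and 12 lower (2.3%), and the WT ratio in 10 (1.92%), 4 higher (0.768%) and 6 lower (1.15%). The counting interval of the ratio of ratios excluded 1 in 207 of the 338 genes, and in 28 of the 28 with a mean of 100 or more. These genes were picked by the size of the same difference, which largely sets such shares. Without that choice the interval excluded 1 in 299 of the 1997 entering genes, and in 99 of the 521 deepest.

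Most of the genes past 2-fold in either background fell into 4 patterns, shown in the plot of the 2 ratios against each other. In 12 genes the 2 ratios were past 2-fold in the same direction, and in 11 they were past it in opposite directions. In 175 genes the ratio was past 2-fold in the S_PXT1 background and under it in the WT background, with the difference of the ratios past 2-fold as well. In 59 genes the same held with the backgrounds exchanged. The order of these 2 counts depended on the filter: they were 47 and 32 with 10 or more counts in all 4 libraries, and 2854 and 4887, the reverse order, without a filter. In a further 90 genes the difference was past 2-fold and neither ratio was, and in 25 a single ratio was past 2-fold but the difference was not. Across genes, which are not independent replicates, the 2 ratios had a Pearson r of -0.01 and a Spearman rho of -0.01 over 1997 genes, and an r of 0.04 and a rho of 0.17 over the 521 with a mean of 100 or more. Their signs were the same in 51.4% of all entering genes and in 58.3% of the deepest class.

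**Figure D1:**
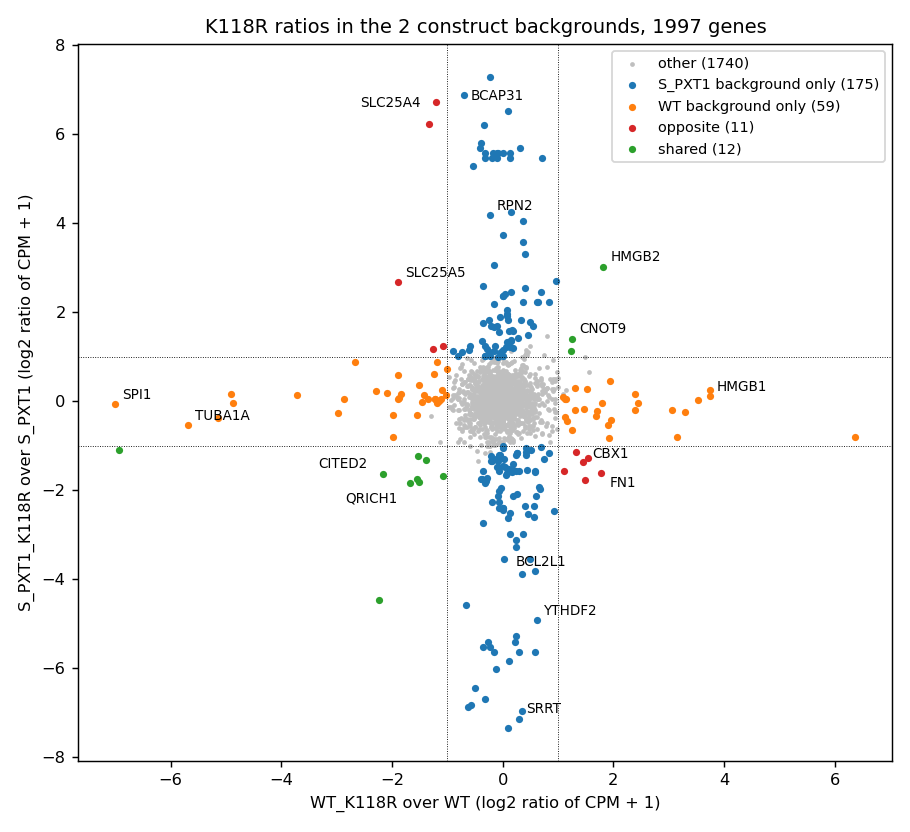
Log2 ratio of S_PXT1_K118R over S_PXT1 (vertical axis) against that of WT_K118R over WT (horizontal axis), both of CPM plus 1, for the 1997 entering genes. Dotted lines mark 2-fold. Coloured points lie mostly along the 2 axes, 175 along the vertical and 59 along the horizontal, with 12 genes in the corners of equal sign and 11 in those of opposite sign.

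Of the 12 genes past 2-fold in the same direction, 9 were lower and 3 higher with K118R in both backgrounds. CITED2, a transcriptional coregulator that binds CBP and p300, stood out by its depth. It had 403 counts in S_PXT1_K118R against 1291 in S_PXT1, and 133 in WT_K118R against 602 in WT. It was 3.10-fold lower with K118R in the S_PXT1 background (95% interval 2.77 to 3.47) and 4.48-fold lower in the WT background (3.71 to 5.45). The ratio of the 2 ratios was 1.45 (1.16 to 1.82), so the WT background had the lower ratio beyond counting error. The absolute levels did not line up by substitution alone: CITED2 was at 1578 CPM in S_PXT1_K118R, 4887 in S_PXT1, 390 in WT_K118R, 1748 in WT and 1726 in PMSCV. S_PXT1_K118R was therefore near WT and PMSCV, S_PXT1 was above the other libraries and WT_K118R below them.

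QRICH1, a glutamine-rich nuclear protein, had 34 counts in S_PXT1_K118R against 126 in S_PXT1, and 15 in WT_K118R against 49 in WT, with 122 in PMSCV. It was 3.58-fold lower with K118R in the S_PXT1 background (2.44 to 5.40) and 3.24-fold lower in the WT background (1.78 to 6.21). The ratio of ratios, 0.903, had an interval of 0.433 to 1.95, which leaves room for about a 2-fold difference either way. SNW1, a spliceosome component and transcriptional coregulator, had 19 counts in S_PXT1_K118R against 67 in S_PXT1, and 23 in WT_K118R against 69 in WT. Its 17 counts in PMSCV were as low as those of the K118R libraries. RNF114, an E3 ubiquitin ligase, had 23 and 26 counts in S_PXT1_K118R and WT_K118R, against 56 and 76 in S_PXT1 and WT. NSD3, a histone H3 lysine methyltransferase, had 15 and 18 counts in S_PXT1_K118R and WT_K118R, against 39 and 48 in S_PXT1 and WT. ID2, which blocks DNA binding by E proteins in lymphoid development, had 8 and 13 counts in S_PXT1_K118R and WT_K118R, against 30 and 38 in S_PXT1 and WT. In SNW1, RNF114, NSD3 and ID2 both K118R libraries were below both libraries without the substitution, and the interval of each fold excluded 1 in both backgrounds. The ratio of ratios of ID2, 0.799, had an interval of 0.253 to 2.41, so at these counts a difference between backgrounds was not detectable in it.

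BCL7C, a subunit of BAF chromatin remodelling complexes, had 12 counts in S_PXT1_K118R against 27 in S_PXT1, and 0 in WT_K118R against 42 in WT. It was 2.18-fold lower in the S_PXT1 background (1.07 to 4.71). In the WT background it was 13.9-fold lower with 3 counts in place of the 0. BCL7C was therefore past 2-fold in the same direction in both but with unequal sizes. With the same 3 counts the ratio of ratios was 6.38. In the higher direction, CNOT9, a subunit of the CCR4-NOT deadenylase complex, had 108 counts in S_PXT1_K118R against 42 in S_PXT1, and 114 in WT_K118R against 48 in WT, with 48 in PMSCV. It was 2.66-fold higher with K118R in the S_PXT1 background (1.85 to 3.89) and 2.40-fold higher in the WT background (1.70 to 3.43). Its ratio of ratios was 1.11 (0.66 to 1.87), and PMSCV stood with the libraries without the substitution. HMGB2, a DNA-bending chromatin protein, had 49 counts in S_PXT1_K118R against 6 in S_PXT1, and 67 in WT_K118R against 19 in WT. PMSCV had 56 counts of HMGB2 and so stood with the K118R libraries. The HMGB2 ratio was 8.45-fold higher in the S_PXT1 background (3.61 to 24.1) and 3.56-fold higher in the WT background (2.11 to 6.27), and the ratio of ratios of 2.37 had an interval that included 1 (0.828 to 7.77).

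**Figure D2:**
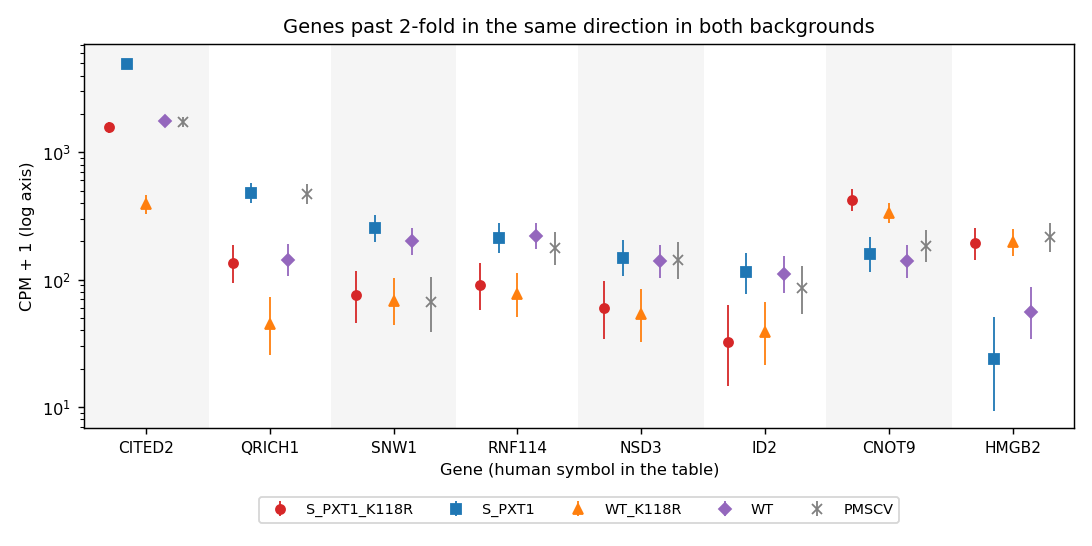
CPM plus 1 on a log axis in each library for 8 genes past 2-fold in the same direction in both backgrounds, with 95% Poisson intervals of the counts. In CITED2, QRICH1, SNW1, RNF114, NSD3 and ID2 each K118R library sits below its own counterpart, and in CNOT9 and HMGB2 each sits above it, while PMSCV stands at either level depending on the gene.

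Among the 11 genes with opposite ratios, 5 were higher with K118R in the S_PXT1 background and lower in the WT background, and 6 the other way round. The first orientation held both ADP/ATP carriers of the mitochondrial inner membrane that entered. SLC25A5 had 63 counts in S_PXT1_K118R against 10 in S_PXT1, and 24 in WT_K118R against 91 in WT, with 39 in PMSCV. It was 6.52-fold higher with K118R in the S_PXT1 background (3.32 to 14.2) and 3.76-fold lower in the WT background (2.37 to 6.16), a ratio of ratios of 24.5 (10.3 to 60.5). SLC25A4 had 27 counts in S_PXT1_K118R against 0 in S_PXT1, and 25 in WT_K118R against 59 in WT. With 3 counts in place of the 0 it was 9.31-fold higher in the S_PXT1 background, with an exact lower limit of 7.06. In the WT background it was 2.34-fold lower (1.44 to 3.90). The carriers are close copies of each other, and no source used here says how the counting divided reads between such copies. With its named pseudogenes added, SLC25A5 kept a difference of 3.43 on the log2 scale. UBE4A, a ubiquitin chain elongation factor, had 31 counts in S_PXT1_K118R against 14 in S_PXT1, and 18 in WT_K118R against 44 in WT, with 34 in PMSCV. Its ratio of ratios was 5.55 (2.23 to 14.0).

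In the second orientation CBX1, a heterochromatin protein that reads methylated histone H3, had the most counts. It had 68 in S_PXT1_K118R against 181 in S_PXT1, and 228 in WT_K118R against 84 in WT, with 57 in PMSCV. CBX1 was 2.57-fold lower with K118R in the S_PXT1 background (1.94 to 3.45) and 2.74-fold higher in the WT background (2.12 to 3.56), so the ratios were 7.05-fold apart (4.77 to 10.4). The levels, 266, 685, 668, 244 and 219 CPM in S_PXT1_K118R, S_PXT1, WT_K118R, WT and PMSCV, formed a high pair of S_PXT1 and WT_K118R and a low group of the other 3. ZCCHC2, a zinc-knuckle protein, had the same arrangement, with 114, 276, 305, 105 and 111 CPM in S_PXT1_K118R, S_PXT1, WT_K118R, WT and PMSCV. Its ratios were 7.10-fold apart (3.85 to 13.1).

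FN1 and POSTN, the extracellular matrix proteins fibronectin and periostin, were also opposite. FN1 had 3 counts in S_PXT1_K118R against 10 in S_PXT1, a ratio of 0.310 with an interval that included 1 (0.0549 to 1.21), and 204 in WT_K118R against 60 in WT, 3.43-fold higher (2.56 to 4.66). POSTN had 7 counts in S_PXT1_K118R against 22 in S_PXT1, and 58 in WT_K118R against 27 in WT. Both are made by fibroblasts and other stromal cells. The 16 fibroblast and collagen markers in the table, FN1 among them, summed to 346 counts in S_PXT1_K118R, 341 in S_PXT1, 1152 in WT_K118R, 754 in WT and 769 in PMSCV. Of the 16, 6 were at 0 in S_PXT1_K118R and 3 in S_PXT1, against none in WT_K118R and WT. COL1A2, a fibrillar collagen chain, had 4 and 3 counts in S_PXT1_K118R and S_PXT1, and 102 and 68 in WT_K118R and WT. Other members of the list differed from it. In the same order, COL3A1 had 95, 73, 202 and 155 counts, LUM 0, 6, 26 and 27, and DCN 5, 5, 21 and 61. DCN was thus lower with K118R in the WT background, where FN1 was higher. The part of such reads in the FN1 and POSTN differences was not tested. In bulk RNA fewer cells of a type and less RNA per cell cannot be told apart.

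**Figure D3:**
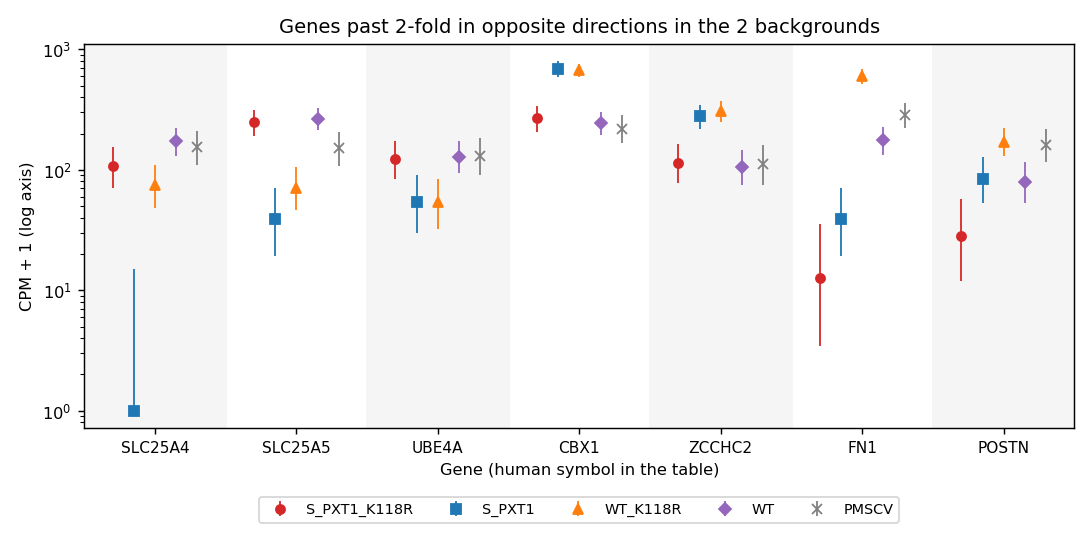
CPM plus 1 on a log axis in each library for 7 genes past 2-fold in opposite directions, with 95% Poisson intervals of the counts. SLC25A4, SLC25A5 and UBE4A are low in S_PXT1 and WT_K118R, and CBX1 and ZCCHC2 are high in those 2 libraries, with PMSCV nearer S_PXT1_K118R and WT in these genes; SLC25A4 has 0 counts in S_PXT1.

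The genes past 2-fold in the S_PXT1 background and under it in the WT background divided into 84 higher and 91 lower with K118R. The interval of the ratio of ratios excluded 1 in 119 of the 175, and 33 of them had a library at 0. Among the lower ones, YTHDF2, a reader of N6-methyladenosine that promotes mRNA decay, had 5 counts in S_PXT1_K118R against 165 in S_PXT1, and 332 in WT_K118R against 218 in WT, with 137 in PMSCV. It was 31.9-fold lower with K118R in the S_PXT1 background (13.4 to 99.6) and 1.54-fold higher in the WT background (1.29 to 1.83). The difference of -5.55 on the log2 scale became -3.36 when the counts of its named pseudogene were added. BCL2L1, the gene of the anti-apoptotic protein BCL-XL, had 8 counts in S_PXT1_K118R against 100 in S_PXT1, and 90 in WT_K118R against 89 in WT, with 73 in PMSCV. It was 12.1-fold lower with K118R in the S_PXT1 background (5.90 to 28.8), and its WT fold of 1.02 had an interval of 0.753 to 1.38. HSP90AA1, a cytosolic chaperone, had 17 counts in S_PXT1_K118R against 103 in S_PXT1, and 231 in WT_K118R against 169 in WT. In each of YTHDF2, BCL2L1 and HSP90AA1 the S_PXT1_K118R library was the low one, and PMSCV lay near the other 3.

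DYRK1A, a dual-specificity kinase, had 44 counts in S_PXT1_K118R against 186 in S_PXT1, and 235 in WT_K118R against 249 in WT, and CPSF6, a cleavage factor that sets poly(A) sites, had 35 against 140, and 159 against 164. DYRK1A was 4.09-fold lower with K118R in the S_PXT1 background (2.93 to 5.81) and CPSF6 3.87-fold lower (2.65 to 5.77). PMSCV had 177 counts of DYRK1A and 33 of CPSF6, so for CPSF6 it was as low as S_PXT1_K118R. SRRT, which links the cap-binding complex to RNA processing, SLC7A6, a cationic amino acid transporter, and VRK1, a nuclear kinase, had 37, 43 and 33 counts in S_PXT1 and 0 in S_PXT1_K118R. With 3 counts in place of the 0 they were 11.9-fold, 13.9-fold and 10.6-fold lower with K118R in that background. They had 36 to 62 counts in WT_K118R and WT. SERBP1, an mRNA-binding protein of the ribosome, had 42 counts in S_PXT1_K118R against 248 in S_PXT1, and 3131 in WT_K118R against 2866 in WT. Its difference of -2.65 on the log2 scale was -0.81, under 2-fold, with its named pseudogenes added.

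LDB1 and GATA2, partners in transcription complexes of blood progenitors, differed from these in which library was apart. LDB1, a cofactor that bridges LIM-domain and GATA factors, had 78 counts in S_PXT1_K118R against 239 in S_PXT1, and 101 in WT_K118R against 83 in WT, with 74 in PMSCV. GATA2 had 84 in S_PXT1_K118R against 202 in S_PXT1, and 123 in WT_K118R against 128 in WT, with 96 in PMSCV. In both genes S_PXT1 was the high library and the other 4 were alike in scaled level, between 241 and 305 CPM for LDB1 and between 329 and 372 CPM for GATA2. LDB1 was 2.96-fold lower with K118R in the S_PXT1 background (2.29 to 3.88), and its WT fold of 1.23 had an interval of 0.910 to 1.66. GATA2 was 2.33-fold lower in the S_PXT1 background (1.79 to 3.04) and its WT fold was 0.970 (0.751 to 1.25). The ratios were 3.64-fold apart for LDB1 (2.43 to 5.46) and 2.26-fold for GATA2 (1.56 to 3.27). NONO, a paraspeckle protein of RNA splicing and DNA repair, was also highest in S_PXT1 among the 4 libraries compared, with 161 counts. It had 23, 47 and 61 in S_PXT1_K118R, WT_K118R and WT, which were less alike.

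In the higher direction S_PXT1 was often the low library. TUBA1C, an alpha-tubulin, was the best counted, with 3808 counts in S_PXT1_K118R against 1346 in S_PXT1, and 5043 in WT_K118R against 5332 in WT. It was 2.93-fold higher with K118R in the S_PXT1 background (2.75 to 3.12), with a WT fold of 0.955 (0.918 to 0.992), and the levels of S_PXT1_K118R, WT_K118R, WT and PMSCV lay between 13382 and 15479 CPM. RPN2, a subunit of the oligosaccharyltransferase of the endoplasmic reticulum, had 110 counts in S_PXT1_K118R against 6 in S_PXT1, and 161 in WT_K118R against 191 in WT. It was 19.0-fold higher in the S_PXT1 background (8.44 to 52.8). BCAP31, a sorting protein of the same membrane, had 30 counts in S_PXT1_K118R against 0 in S_PXT1, and 23 in WT_K118R against 38 in WT. DNAJC8, a spliceosome-associated J-domain protein, had 85 counts in S_PXT1_K118R against 2 in S_PXT1, a ratio of 44.0 (11.8 to 369), and 94 in WT_K118R against 137 in WT. SLC25A12, the mitochondrial aspartate/glutamate carrier, had 40 counts in S_PXT1_K118R against 0 in S_PXT1, 39 in WT_K118R, 46 in WT and 1 in PMSCV, so S_PXT1 was not the sole low library. MED1, a Mediator subunit, was instead high in S_PXT1_K118R, with 115 counts there against 39 in S_PXT1, and 62 in WT_K118R against 56 in WT.

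The genes past 2-fold in the WT background and under it in the S_PXT1 background were 27 higher and 32 lower with K118R, and the interval of the ratio of ratios excluded 1 in 48 of the 59. SPI1, the PU.1 transcription factor of myeloid and B-lineage cells, had 1 count in WT_K118R against 173 in WT, and 128 in S_PXT1_K118R against 139 in S_PXT1, with 113 in PMSCV. The WT over WT_K118R ratio was 171 (30.4 to 6809), and the S_PXT1 fold of 0.952 had an interval of 0.743 to 1.22. TUBA1A, an alpha-tubulin, had 12 counts in WT_K118R against 640 in WT, and 383 in S_PXT1_K118R against 578 in S_PXT1. The ends of TUBA1A (chromosome 12, 49184796 to 49189324) and TUBA1C (chromosome 12, 49188736 to 49274603) overlap in the table, and no source used here gives the strand setting of the counting. TAF9, a subunit of TFIID and of SAGA, had 7 counts in WT_K118R against 216 in WT, and 168 in S_PXT1_K118R against 180 in S_PXT1. MAP3K7, the TAK1 kinase upstream of NF-kB, had 3 counts in WT_K118R against 44 in WT, a WT over WT_K118R ratio of 14.5 (4.66 to 73.2), and 33 and 31 in S_PXT1_K118R and S_PXT1. In SPI1, TUBA1A, TAF9 and MAP3K7 the WT_K118R library was low and the other 4 were alike within 2-fold of each other.

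KDM2A, a histone H3 lysine demethylase, and SRSF7, a splicing factor, showed smaller differences at good depth. KDM2A had 64 counts in WT_K118R against 237 in WT, 3.67-fold lower (2.77 to 4.91), and 197 and 194 in S_PXT1_K118R and S_PXT1. SRSF7 had 36 counts in WT_K118R against 131 in WT, 3.61-fold lower (2.48 to 5.37), and 111 and 102 in S_PXT1_K118R and S_PXT1. ZFP36L2, which binds AU-rich elements and speeds mRNA decay, was high in WT, with 82 counts in WT_K118R against 184 in WT, and 63 and 65 in S_PXT1_K118R and S_PXT1. ZFP36L2 was 2.22-fold lower with K118R in the WT background (1.70 to 2.92), and the interval of its S_PXT1 fold was 0.697 to 1.44.

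In the higher direction WT was at least 2-fold below each of the other 3 libraries compared in 15 of the 27 genes. YTHDF3, a second N6-methyladenosine reader, had 222 counts in WT_K118R against 64 in WT, 3.50-fold higher (2.64 to 4.70), and 204 and 216 in S_PXT1_K118R and S_PXT1, with 168 in PMSCV. SUMO2, a ubiquitin-like modifier, had 90 counts in WT_K118R against 9 in WT, 10.1-fold higher (5.09 to 22.8), and 64 and 79 in S_PXT1_K118R and S_PXT1. SLC7A5, an amino acid transporter, had 72 counts in WT_K118R against 6 in WT, and EHD4, an endocytic trafficking protein, had 126 against 24. PMSCV had 11 counts of SLC7A5 and 10 of EHD4, so for these genes it was low beside WT, whereas both S_PXT1 libraries were at the level of WT_K118R. HMGB1, a DNA-bending chromatin protein, was instead high in WT_K118R, with 376 counts there against 28 in WT. It had 22 and 21 in S_PXT1_K118R and S_PXT1, with 71 in PMSCV. Its difference of -3.63 on the log2 scale was -1.17 with its named pseudogenes added, when the counts were 585 in WT_K118R against 250 in WT.

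In 173 of the 338 genes with a 2-fold difference of ratios (51.2%), 1 of the 4 libraries was at least 2-fold from each of the other 3, which lay within 2-fold of each other. In 156 of the 173 that library was below the others and in 17 above, a split that the filter on counts favours. S_PXT1_K118R was below in 61 genes and above in 6, and S_PXT1 was below in 58 and above in 6. WT_K118R was below in 22 genes and above in 3, and WT was below in 15 and above in 2. PMSCV, which played no part in the choice, was within 2-fold of the median of the other 3 in 149 of the 173 genes. The same share over all entering genes was not calculated, so this number has no background to be set against. At a mean of 20 or more counts, 86 of 179 genes (48.0%) had a single library apart, with S_PXT1_K118R below in 23, S_PXT1 below in 25, and WT_K118R and WT below in 12 each. For these genes the difference between the backgrounds rested on the count of a single library.

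**Figure D4:**
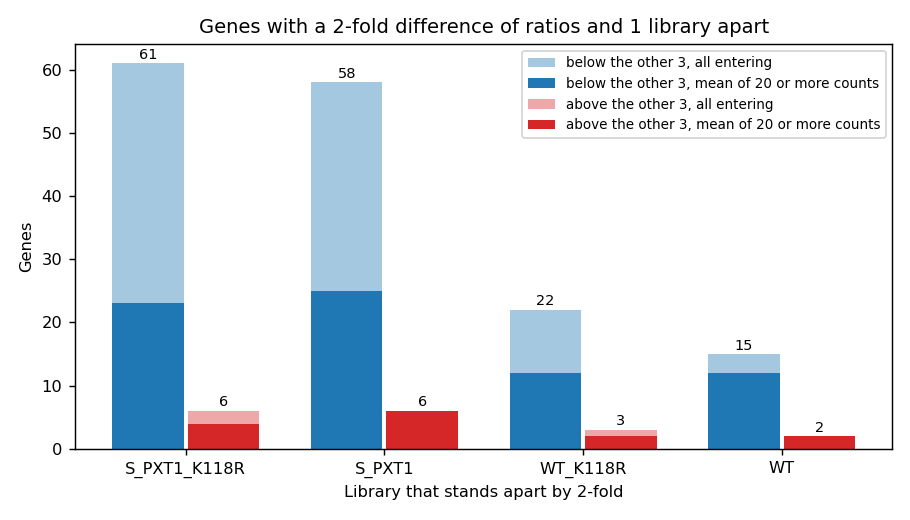
Number of genes (vertical axis) in which the library on the horizontal axis was at least 2-fold below (blue) or above (red) the other 3, among genes with a 2-fold difference of ratios. The full bars count all entering genes and the dark parts those with a mean of 20 or more counts. S_PXT1_K118R and S_PXT1 are below the others in 61 and 58 genes, against 22 for WT_K118R and 15 for WT.

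Gene lists of pathways and complexes were placed beside the median of 0.01 and the 8.86% higher and 8.06% lower of all entering genes. Cytosolic ribosomal proteins had the most one-sided counts among the lists with 10 or more entering members. Of 76 ribosomal protein genes, 54 entered, 16 had a difference past 2-fold towards the S_PXT1 background and 0 the other way, and 41 were above 0. Their median difference was 0.51, from a median of 0.26 for the S_PXT1 ratio and -0.18 for the WT ratio. With named pseudogenes added, 13 were past 2-fold and the median was 0.43. RPL3 had 57 counts in S_PXT1_K118R against 31 in S_PXT1, and 95 in WT_K118R against 142 in WT, a ratio of ratios of 2.82 (1.65 to 4.86). RPS2 had 107 counts in S_PXT1_K118R against 58 in S_PXT1, and 68 in WT_K118R against 89 in WT, a ratio of ratios of 2.47 (1.54 to 3.98). The interval excluded 1 in 8 of the 54 members, a share no larger than the 299 of all 1997 entering genes. Over all 76 genes the sums were 5247 counts in S_PXT1_K118R against 5150 in S_PXT1, and 6620 in WT_K118R against 7659 in WT, a ratio of ratios of 1.21 (1.15 to 1.27), so the summed difference was far under 2-fold.

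Cytosolic chaperones leaned the other way, with a median of -0.41 over 22 entering members, 3 past 2-fold lower and 0 higher, a number past 2-fold no larger than the 16.9% of all entering genes would give. With named pseudogenes added, 2 were lower and the median was -0.38. Over all 33 chaperone genes in the table the sums were 1168 counts in S_PXT1_K118R against 1334 in S_PXT1, and 2115 in WT_K118R against 1901 in WT, a ratio of ratios of 0.806 (0.729 to 0.892). HSPD1, the mitochondrial chaperonin counted with this list, had 15 counts in S_PXT1_K118R against 23 in S_PXT1, and 69 in WT_K118R against 49 in WT, and the interval excluded 1 in a single member of the list. The 20 proteins of the endoplasmic reticulum chaperone and translocon list had 4 higher, BCAP31, RPN2, SSR2 and P4HB, and 1 lower, TXNDC5. Their median was -0.16, and 13 of the 20 were below 0. Over all 38 genes of that list the summed ratio of ratios was 1.27 (1.11 to 1.46), the other direction from the median. Of 23 SLC25 mitochondrial carriers, 4 entered, and SLC25A4, SLC25A12 and SLC25A5 were past 2-fold higher. The 4 iron-handling genes that entered, of 15 in the table, were all past 2-fold higher, but the interval excluded 1 in 2 of them. Over all 15 genes the summed ratio of ratios was 1.78 (1.28 to 2.47), under 2-fold. FTH1, the ferritin heavy chain, had 64 counts in S_PXT1_K118R against 41 in S_PXT1, and 57 in WT_K118R against 86 in WT.

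In the lists tied to mRNA fate and to blood cells, members past 2-fold lay on both sides in most cases. The 28 mRNA stability genes had a median of 0.14, with 2 higher and 1 lower, and 2 and 0 with named pseudogenes added. Over all 42 genes of that list the summed ratio of ratios was 0.854 (0.834 to 0.875), the other direction from the median. Among the well-counted members, YBX1, a Y-box mRNA-binding protein, had a difference of -0.05 and CNOT1, the scaffold of the CCR4-NOT complex, of 0.17, whereas SERBP1 was at -2.65 and PABPC1, the poly(A)-binding protein, at -0.79. PABPC1 had 5818 counts in S_PXT1_K118R against 8495 in S_PXT1, and 9339 in WT_K118R against 7673 in WT, so its ratios were 1.73-fold apart (1.66 to 1.81) with opposite signs. The 12 cleavage and polyadenylation genes had 2 higher and 1 lower with a median of 0.25. The 9 YTH readers and m6A enzymes had 1 higher and 2 lower with a median of 0.12. Over all 15 genes of the YTH and m6A list the summed ratio of ratios was 0.700 (0.619 to 0.792), again the other direction from the median. The 20 entering members of the SR and TRA2 splicing factor list had 2 higher and 2 lower with a median of 0.12. One of the lower members was SRRT, which the list holds although it is neither an SR nor a TRA2 protein. The 46 hnRNP and RBM proteins had 3 and 3 with 0.01, and the 22 CBX, HMG and chromatin remodelling proteins 4 and 2 with -0.11. The 10 entering members of the CLK, DYRK and SRPK kinase list, which also holds HIPK kinases, had 0 higher and 2 lower with a median of -0.12. The lower members were HIPK3 and DYRK1A. The 18 DEAD and DEAH box helicases had 1 higher and 4 lower with a median of -0.06, or 3 lower with named pseudogenes added. The 31 translation factors had 2 higher and 3 lower with a median of 0.13, and the 10 mitochondrially encoded proteins 2 and 1 with -0.12. Of the 6 entering genes of the interleukin-3 and JAK-STAT5 list none was past 2-fold. Among 8 blood progenitor transcription factors, with a median of -0.21, SPI1 was higher and LDB1 and GATA2 were lower, and of 21 BCL2 family genes 2 entered, with BCL2L1 lower.

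**Figure D5:**
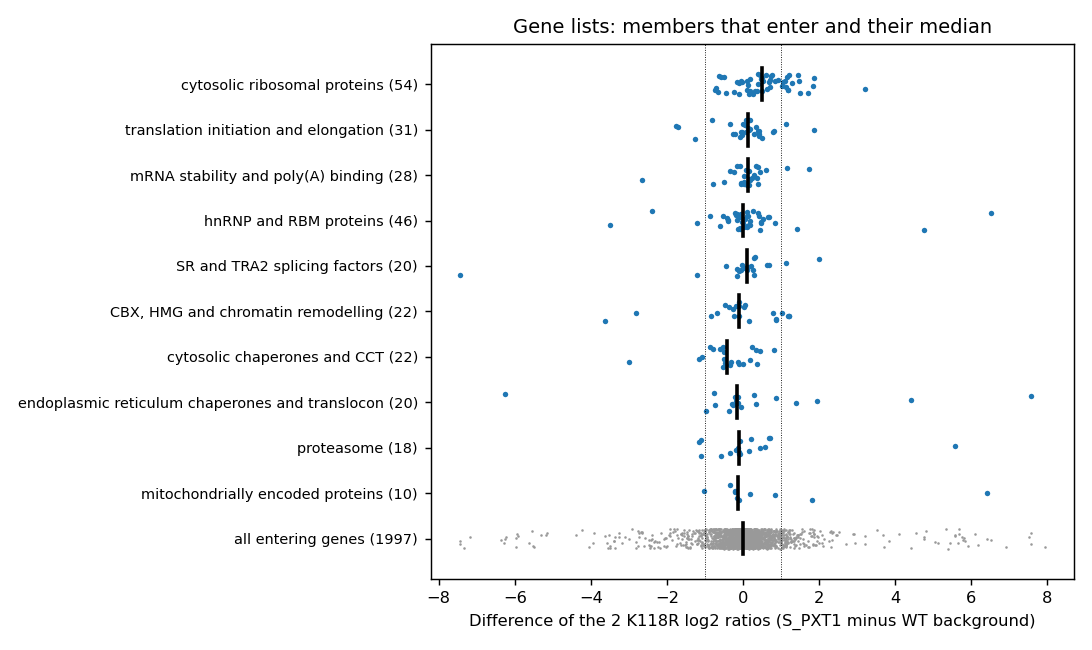
Difference of the 2 K118R log2 ratios, S_PXT1 background minus WT background (horizontal axis), for the entering members of 10 gene lists and for all 1997 entering genes, with the number of entering members in brackets. Each point is a gene, black bars are medians and dotted lines mark 2-fold. The ribosomal protein median stands at 0.51, against 0.01 for all genes.

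For some genes the difference depended on which gene models were added together. RBM4, a splicing regulator, had 90 counts in S_PXT1_K118R against 1 in S_PXT1, and 33 in WT_K118R against 42 in WT, a difference of 6.54. The model RBM14-RBM4, which overlaps it, had 4 counts in S_PXT1_K118R against 98 in S_PXT1, and with overlapping models on the strand summed the RBM4 difference was -0.19. MATR3, a nuclear matrix protein, stands in 2 rows with differences of 4.76 and -3.49, and their locus had 237 counts in S_PXT1_K118R against 281 in S_PXT1, and 259 in WT_K118R against 565 in WT, a difference of 0.91. MT-ND4, a mitochondrially encoded part of NADH dehydrogenase, had 203 counts in S_PXT1_K118R against 2 in S_PXT1, and 665 in WT_K118R against 625 in WT. Its neighbour MT-ND4L had 63 counts in S_PXT1 and at most 1 in the other 3 libraries of the comparison. PMSCV was like S_PXT1, with 3 counts of MT-ND4 and 103 of MT-ND4L. The summed MT-ND4 locus had a difference of 1.59.

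Some models with crossing counts did not enter because 2 libraries were under 10 counts. In 32 models S_PXT1 and WT_K118R reached 10 counts and the other 2 libraries of the comparison did not, and in 29 S_PXT1_K118R and WT did. Of the 32, 3 are described, of which TBP and NDUFAB1 were picked after their values were seen. NFKBIA, which holds NF-kB in the cytoplasm, had 0 counts in S_PXT1_K118R against 104 in S_PXT1, and 49 in WT_K118R against 3 in WT, with 80 in PMSCV. TBP, the TATA-binding protein, had 0 counts in S_PXT1_K118R against 30 in S_PXT1, and 23 in WT_K118R against 0 in WT. NDUFAB1, a mitochondrial acyl carrier protein, had 0 against 31, and 33 against 0, in the same order. In these 3 genes S_PXT1_K118R and WT were low and S_PXT1 and WT_K118R were high, and PMSCV had 12 counts of TBP and 31 of NDUFAB1.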

How the data were processed

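The deposited table gives, per the file headers, raw read counts and FPKM values by library and human gene model. Per the submitters' processing notes cutadapt 1.9, HISAT2 2.2.1 and FastQC were used. No source used here names the counting tool, strand setting, build or annotation. Of 23234 deposited FPKM values compared, 99.98% matched their count scaled by a gene length and a library factor, to within 0.01 in log2, so the counts were used. There were 0 value columns without a library. TMM scaling factors came from edgeR 4.0.16 (R 4.3.3), with no model fitted. The pseudocount of 1 CPM understates differences of low genes. Folds and ratios of ratios were taken on scaled counts without it, with exact 95% intervals (binomial for 2 counts, conditional for 4). Where a library had 0 counts, 3 counts stood in for it and the text says so. Such a fold leaves out the counting error of the other libraries, so it is not a lower limit. A single count of 1 to 3 gives its ratio with the interval.

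The comparison and its 2 ratios were chosen with earlier results of these data known, and so were the 40 gene lists, of whose 1038 symbols 1020 are in the table. Named genes needed a mean of at least 20 counts over the 4 libraries, a symbol on a single row and a mouse protein-coding symbol in the reference tables. They were the 8 most extreme per direction of each pattern, up to 10 per direction at a mean of 100 or more counts, up to 4 per list, and PXT1, CITED2, LDB1, GATA2, BCL2L1 and NFKBIA. A selection of these is described. Genes outside this rule, namely RPS2, SSR2, NDUFAB1, TBP, MATR3, RBM14-RBM4, MT-ND4L, COL1A2, COL3A1, LUM, DCN, YBX1, CNOT1, PTPRC and the markers at 0, were named after their values were seen. A further gene of the constructs is not reported here. The calculation was tested on simulated data. Alternatives were pseudocounts of 0.1 and 5 CPM, no filter, 10 counts in all 4 libraries, size factors from DESeq2 1.42.0, a 1.5-fold threshold, summed overlapping models and FPKM.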

Additional observations from a re-analysis of the deposited data

Results flagged for a closer look

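In 7 named genes the K118R ratio was past 2-fold in one direction with the S_PXT1 construct and past it in the other direction with the WT construct. With 1 library per group this difference between backgrounds was not tested. The difference of the 2 log2 ratios, S_PXT1 background minus WT background, was 7.95 for SLC25A4 (an S_PXT1 ratio of 6.74, set by the pseudocount since S_PXT1 had 0 counts, and a WT ratio of -1.21), 4.57 for SLC25A5 (2.67 and -1.89) and 2.44 for UBE4A (1.18 and -1.26). It was -2.81 for CBX1 (-1.36 and 1.45), -2.81 for ZCCHC2 (-1.28 and 1.53), -2.68 for POSTN (-1.57 and 1.11) and -3.38 for FN1 (-1.61 and 1.77).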

How the results depend on the processing

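No paired analysis was possible because each group held 1 library, and leaving out a library was not possible for the same reason. Counts of genes in each pattern stayed within 1.5 times under both pseudocounts, DESeq2 size factors, FPKM and summed overlapping models, and under 2 alternatives chosen after seeing the data, zeros set to 3 counts and named pseudogenes added. Without a filter, over 15119 genes, 4692 differences were past 2-fold higher and 4692 lower, 979 genes were opposite, 984 shared, 2854 past 2-fold in the S_PXT1 background and 4887 in the WT background, the reverse of the order with the filter, with a single library apart in 5964. With 10 counts in all 4 libraries, over 1686 genes, the counts were 80 higher, 70 lower, 5 opposite, 6 shared, 47 in the S_PXT1 background, 32 in the WT background and 51 with a library apart. At a 1.5-fold threshold they were 345, 303, 48, 39, 279 and 138. The fall with the stricter filter follows from removing genes with a low library. RBM4 changed direction, to -0.19, with overlapping models summed, where reads of a joined model are added, and the MATR3 rows, with differences of 4.76 and -3.49, gave 0.91 as 1 locus. The median difference of all genes moved to -0.02 with DESeq2 size factors. Depth limited the single genes: the counting interval excluded 1 in 207 of the 338 differences past 2-fold.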
